A study of Mus musculus with 12 samples.

Results

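The aryl hydrocarbon receptor (AHR) and its cytochrome P450 targets were followed across survivin-deleted and wild-type liver tumours and liver. The 7 genes Cyp1a1, Cyp1a2, Cyp1b1, Ahr, Ahrr, Arnt and Tiparp were taken by the gene name on the array, out of 34844 gene names, and they were picked with earlier results of these same arrays known. Their levels and differences are therefore given as descriptions, with no test of their own. They are represented by 12 probes, and 6 of the 7 genes passed the filter on dim signal that left 26506 genes.

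Transcript levels were read on 12 single-colour Agilent arrays from male mice of mixed 129/SV/B6 background, 3 arrays in each of 4 groups. The groups are survivin-deleted hepatocellular carcinoma (HCC; Mxcre+), wild-type HCC (Mxcre-), survivin-deleted non-cancerous liver (Mxcre+) and wild-type non-cancerous liver (Mxcre-). Every group had received the liver carcinogen diethylnitrosamine (DEN) at 50 mg/kg at 2 weeks of age and poly(IC) 8 months later. Sampling followed poly(IC) by 1 week, and irradiation with a bone marrow transplant by 2 months. Mx-Cre is switched on by interferon, which poly(IC) induces, in hepatocytes and in blood cells among others, so that the deletion need not be limited to hepatocytes. By these times the marrow was replaced in all groups before poly(IC) was given. Whether blood cells carried the deletion was not tested. The labels do not say that the arrays of a group come from separate animals, so p-values and errors here measure only the spread between these samples, which may be technical.

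AHR is a ligand-activated transcription factor that waits in the cytosol with HSP90 and co-chaperones. When a ligand such as a dioxin, a polycyclic hydrocarbon or a tryptophan metabolite binds, AHR enters the nucleus, pairs with ARNT and binds DNA elements with the core GCGTG. In liver its best-known targets are the P450 enzymes Cyp1a1, Cyp1a2 and Cyp1b1 and its own feedback inhibitors Ahrr and Tiparp. Cyp1a2 is also made without added ligand, by the hepatocytes around the central vein, where beta-catenin signalling keeps a zone of pericentral genes on.

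The upstream sequence of Cyp1a1 and Cyp1a2 is shown because these targets had the closest patterns as read, dim Cyp1a1 values included. That of Tiparp is shown because it is a target whose levels showed no such pattern. The sequences are the 250 bases before the annotated start, from RefSeq on GRCm38.p6, 5′ to 3′ on the strand of the gene, with each GCGTG on either strand (CACGC on the opposite one) in capitals.
Cyp1a1 (GRCm38.p6 chr9:57697363-57697612, plus strand): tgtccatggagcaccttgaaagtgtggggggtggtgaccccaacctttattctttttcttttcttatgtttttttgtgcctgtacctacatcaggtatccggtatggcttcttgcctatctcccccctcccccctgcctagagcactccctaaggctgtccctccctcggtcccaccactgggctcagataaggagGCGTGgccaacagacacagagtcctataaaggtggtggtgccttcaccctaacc
Cyp1a2 (GRCm38.p6 chr9:57683656-57683905, minus strand): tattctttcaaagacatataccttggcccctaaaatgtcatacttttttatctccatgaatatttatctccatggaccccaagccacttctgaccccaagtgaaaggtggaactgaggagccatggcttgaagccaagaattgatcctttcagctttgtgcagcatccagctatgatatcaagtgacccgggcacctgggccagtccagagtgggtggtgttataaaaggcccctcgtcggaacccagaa
Tiparp (GRCm38.p6 chr3:65528197-65528446, plus strand): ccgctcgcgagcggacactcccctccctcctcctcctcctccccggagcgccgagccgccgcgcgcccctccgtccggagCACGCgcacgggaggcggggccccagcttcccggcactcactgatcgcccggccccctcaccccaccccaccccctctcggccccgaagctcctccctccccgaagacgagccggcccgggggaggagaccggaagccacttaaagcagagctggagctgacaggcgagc

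Cyp1a1 and Cyp1a2 lie head to head on chromosome 9 with 13957 bases between their starts in the same annotation. The Cyp1a1 window holds 1 GCGTG, which runs over positions 54 to 50 before the start, the Cyp1a2 window holds 0 and the Tiparp window holds 1, on the opposite strand. For comparison, 28.2% of 32851 windows of this length hold the 5-base core. The longer TNGCGTG, which contains the core, was found in 4.1% of windows and, among the genes studied here, in that of Ahrr, which has 3 cores. Cyp1b1 and Arnt have 1 core each. Of the 7 genes 6 matched an entry in the sequence table, all but Ahr. The response elements by which mouse Cyp1a1 was first characterised lie further upstream than this window.

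Levels are log2 of the processed signal relative to the 75th percentile of the array, which is 0, so a difference of 1 is a doubling. Signal depth differed by slide: the 75th percentile of the signal was 1131 to 1766 on slide 1, which held replicate 1 of each group, and 3343 to 3906 on slide 2, which held replicates 2 and 3. On 11 arrays 69.2% to 83.4% of spots were well above background, and on the first wild-type liver array 49.0%. In the deposited value table a pair of columns appears exchanged: that of survivin-deleted liver replicate 1 follows the scanner values of wild-type HCC replicate 1 (r = 1, and 0.964 with its own), and the opposite holds for the other (r = 1, and 0.97 with its own). Birc5, which encodes survivin, was on its brightest probe at -0.08 to 0.17 in survivin-deleted HCC and 0.80 to 1.76 in wild-type HCC. The same probe read 2.42, -0.10 and -1.07 in survivin-deleted liver and 2.85, 0.51 and 0.76 in wild-type liver (replicates 1, 2 and 3). The array labelled as replicate 1 of survivin-deleted liver thus had a high Birc5 level despite its label. It read below wild-type liver replicate 1 of the same slide, by little on the middle (0.70 against 0.76) and dimmest probes (-0.33 against -0.23). On the middle Birc5 probe wild-type HCC replicate 1 read -0.57, within survivin-deleted HCC (-0.99 to -0.24). Replicates 2 and 3 of wild-type HCC read 0.57 and 1.41 there. On the dimmest probe wild-type HCC read -2.03, -0.85 and 0.09, and survivin-deleted HCC -2.93 to -2.56. The Birc5 level of wild-type HCC replicate 1 thus fits its label on some probes only. Results are given as labelled and, where they rest on these arrays, with the pair exchanged or left out. All 5 measured hepatocyte markers (Alb, Ttr, Apoa1, Fgb, Hnf4a) were well above background on all 12 arrays.

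Cyp1a1, the most strongly AHR-induced P450 and an oxidiser of polycyclic hydrocarbons, was measurable in survivin-deleted HCC and not in wild-type HCC. Its level was -3.84, -3.96 and -4.65 in survivin-deleted HCC (replicates 1, 2 and 3), and the probe (mm9 chr9:57551535-57551594) was well above background on all 3 arrays. In wild-type HCC it read -6.13, -8.28 and -6.80 and was well above background on none of the 3. The 3 survivin-deleted HCC arrays lay above all 3 wild-type HCC arrays.

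The difference in Cyp1a1 was 2.92 (SE 0.97) on the log2 scale as read. Set against a floor for the dim arrays, survivin-deleted HCC was 3.54-fold higher. This fold sets the mean of the bright group against the higher, per array, of the dim probe and the lowest signal that counted as well above background. That floor is not a detection limit, since a probe not well above background can read above it. A probe of Arnt did so on wild-type liver replicate 1, at -2.88 against -3.31. The fold is therefore no strict lower bound, and it carries no error. The separation of the HCC groups was seen on both slides, with differences of 2.29 on slide 1 and 3.23 on slide 2. It was also seen with the pair of doubtful arrays exchanged (3.14, SE 0.88, 3.85-fold against the floor) and with both left out (3.39, SE 0.95, 4.26-fold against the floor). After normexp background correction, which lifts dim signals, the difference was 1.15 (SE 0.57). Cyp1a1 entered the filtered set only through the survivin-deleted HCC arrays. In these bulk tissues fewer cells of a type and less RNA per cell cannot be told apart.

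In non-cancerous liver Cyp1a1 read -6.80, -5.32 and -3.09 in survivin-deleted samples and -5.42, -3.43 and -2.31 in wild-type samples, with replicate 1 of each group not well above background and the other 2 arrays above it. These groups overlapped, with a difference of -1.35 (SE 0.97) that became -0.49 without survivin-deleted liver replicate 1 and -2.34 without survivin-deleted liver replicate 3. The 3 wild-type HCC arrays read below the 3 wild-type liver arrays, with a measured difference of -3.35 (SE 0.97). On slide 1 (-0.71) neither array was well above background, so that no order can be read there, and on slide 2 both wild-type liver arrays were above background and both wild-type HCC arrays were not (-4.67). No fold is given, since wild-type liver was measured on 2 of 3 arrays. Survivin-deleted HCC and survivin-deleted liver overlapped (0.92, SE 0.97).

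Cyp1a2, the constitutive liver P450 that metabolises caffeine and arylamines, was read by 1 probe, which was well above background on all 12 arrays. Its level was 4.52, 4.11 and 3.13 in survivin-deleted HCC and 3.97, -0.94 and 0.70 in wild-type HCC. It was 4.40, 3.03 and 4.17 in survivin-deleted liver and 4.77, 3.77 and 4.52 in wild-type liver. All but 2 arrays read between 3.03 and 4.77, and wild-type HCC replicates 2 and 3 stood far below them.

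The difference in Cyp1a2 between survivin-deleted and wild-type HCC was 2.68 (SE 0.99), and the groups overlapped because wild-type HCC replicate 1 was as high as the other tissues. It came to 0.55 on slide 1 and 3.74 (SE 0.69) on slide 2, and to 0.12 on slide 1 with the doubtful arrays exchanged. Without wild-type HCC replicate 1, which is 1 of the doubtful arrays, the difference was 4.04 and the groups did not overlap. Without wild-type HCC replicate 2 it was 1.58. Against wild-type liver, the difference of wild-type HCC was -3.11 (SE 0.99), which was -0.80 on slide 1 and -4.27 on slide 2, and -2.02 without wild-type HCC replicate 2.

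In order of mean level, Cyp1a2 was highest in wild-type liver (4.35 ± 0.52), then survivin-deleted HCC (3.92 ± 0.71), survivin-deleted liver (3.87 ± 0.73) and wild-type HCC (1.24 ± 2.50; SD, n = 3 each). These groups overlapped with one another, wild-type HCC through its replicate 1. For Cyp1a1 no order of the means is given: wild-type HCC was not well above background, and wild-type liver (-3.72 ± 1.58) and survivin-deleted liver (-5.07 ± 1.87) each include 1 array that was not. Survivin-deleted HCC (-4.15 ± 0.44; SD, n = 3 each) was measured on 3 of 3 arrays and overlapped with both liver groups.

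**Figure D1:**
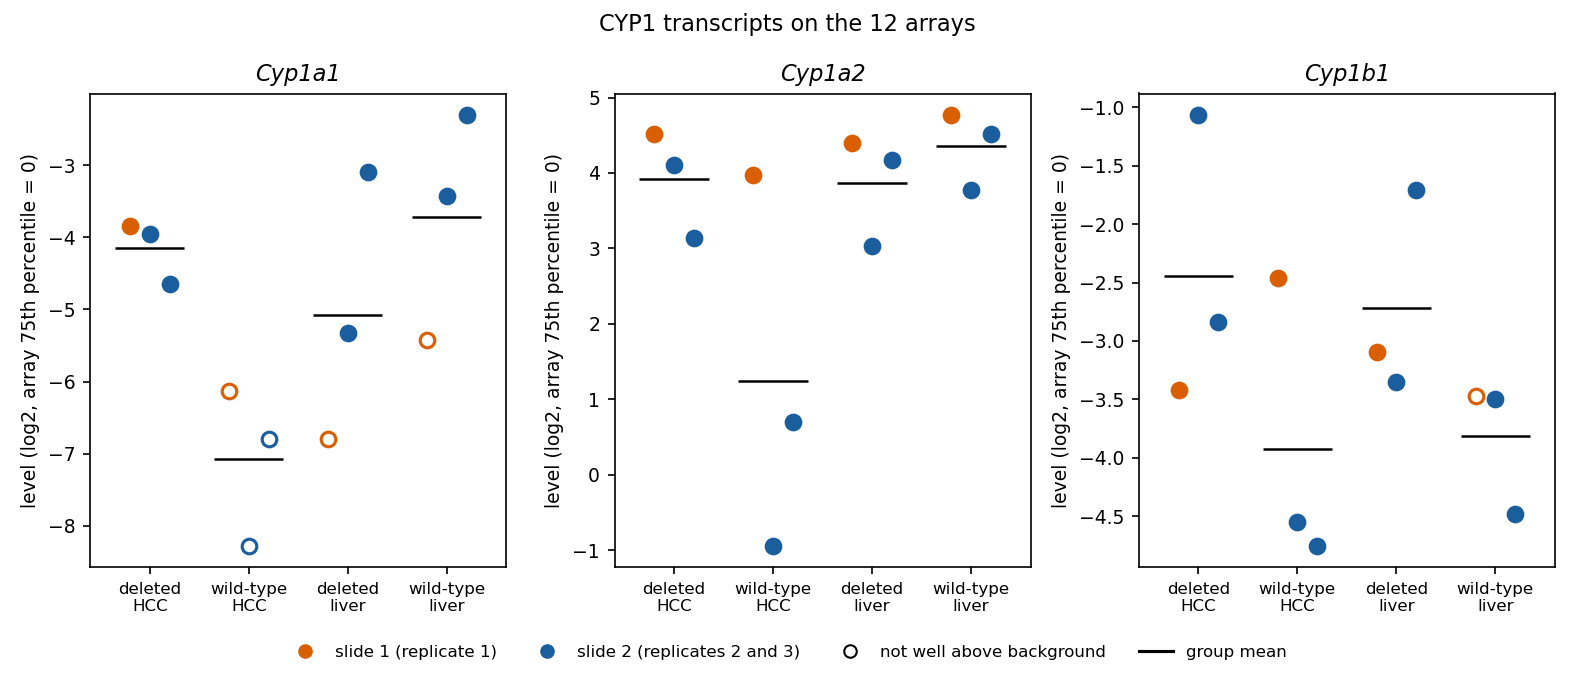
Level of Cyp1a1, Cyp1a2 and Cyp1b1 (y axis, log2 with the 75th percentile of the array at 0) on each of 12 arrays by group, coloured by slide, with open symbols where the probe was not well above background and a line at the group mean. Cyp1a1 in the 3 survivin-deleted HCC arrays lies above the 3 wild-type HCC arrays, and Cyp1a2 in wild-type HCC is at 3.97 on slide 1 but at -0.94 and 0.70 on slide 2.

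Cyp1b1, a P450 that is made mainly in stromal and endothelial cells and that metabolises oestrogens and hydrocarbons, was dimmer. It read -3.42, -1.07 and -2.84 in survivin-deleted HCC and -2.46, -4.55 and -4.75 in wild-type HCC. In liver it read -3.10, -3.35 and -1.71 in survivin-deleted samples and -3.47, -3.50 and -4.48 in wild-type samples, the first of which was not well above background. The HCC groups overlapped. The liver groups did not overlap as read, but the value of wild-type liver replicate 1 is not exact. The lowest level well above background on that array, -3.31, lies above survivin-deleted liver replicate 2, so the separation is not established.

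In HCC the Cyp1b1 difference was 1.48 (SE 0.75), with opposite signs on the slides (-0.96 on slide 1, 2.70 on slide 2), and was 0.79 without survivin-deleted HCC replicate 2. The difference in liver was 1.10 (SE 0.75), 0.37 on slide 1 and 1.46 on slide 2, and 0.59 without survivin-deleted liver replicate 3. Markers of stellate cells and fibroblasts, 6 of 6 detected in every group, summed to 15.4 to 30.8 in survivin-deleted HCC and 17.4 to 26.7 in wild-type HCC, and to 9.07 to 41.4 in survivin-deleted liver and 14.5 to 28.5 in wild-type liver (75th percentile = 1). Their part in the Cyp1b1 values was not tested.

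Tiparp, an ADP-ribosyltransferase induced by AHR that shuts the receptor down, had levels of 2.22, 1.26 and 0.63 in survivin-deleted HCC and 2.98, 0.56 and 0.96 in wild-type HCC. It had levels of 1.88, 0.89 and 0.69 in survivin-deleted liver and 2.54, 0.24 and 0.81 in wild-type liver. The groups overlapped in all 4 comparisons, while the slides did not: the 4 arrays of slide 1 read 1.88 to 2.98 and the 8 of slide 2 read 0.24 to 1.26. With slide as a block the deletion difference was -0.13 in HCC (95% interval -0.81 to 0.54) and -0.05 in liver (-0.72 to 0.63). The dimmer Tiparp probe gave -0.06 and 0.00, in HCC and in liver.

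Ahrr, the repressor that competes with AHR for ARNT, was near the limit of measurement. Its brighter probe was well above background on 6 of 12 arrays, 1 of 3 in survivin-deleted HCC, 2 of 3 in wild-type HCC, 2 of 3 in survivin-deleted liver and 1 of 3 in wild-type liver, and its other probe on 0. It failed the filter in all groups and no fold is given. The brighter probe read -5.36 to -4.63 on slide 1 and -7.28 to -5.68 on slide 2.

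Ahr itself was well above background on all 12 arrays with both of its probes. The brighter probe read 1.65, 2.70 and 1.64 in survivin-deleted HCC and 1.17, 1.33 and 2.09 in wild-type HCC. It read 1.55, 1.99 and 1.88 in survivin-deleted liver and 1.87, 1.73 and 1.75 in wild-type liver. All 4 pairs of groups overlapped. Deletion differences were 0.46 (95% interval -0.32 to 1.25) in HCC and 0.02 (-0.76 to 0.81) in liver, and wild-type HCC differed from wild-type liver by -0.25 (-1.04 to 0.53). A difference of 1 on the log2 scale, a doubling, lies inside the interval of the HCC comparison. The dimmer Ahr probe gave 0.44 (SE 0.81) in HCC and -1.07 (SE 0.81) in liver, where wild-type liver replicate 1, the array with the fewest spots above background, read -1.38 against -5.28 to -3.53 on the other 11 arrays.

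Arnt, the obligate DNA-binding partner, read 2.87, 2.41 and 2.28 in survivin-deleted HCC and 3.16, 1.97 and 2.05 in wild-type HCC. It read 2.58, 2.09 and 2.06 in survivin-deleted liver and 3.20, 1.93 and 1.80 in wild-type liver. These groups overlapped, and here too slide 1 (2.58 to 3.20) stood above slide 2 (1.80 to 2.41). With slide as a block the deletion difference was 0.13 in HCC (95% interval -0.34 to 0.60) and -0.07 in liver (-0.54 to 0.40). The middle Arnt probe gave 0.45 (SE 0.36) in HCC and 0.11 (SE 0.36) in liver, and the third was well above background on no array.

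**Figure D2:**
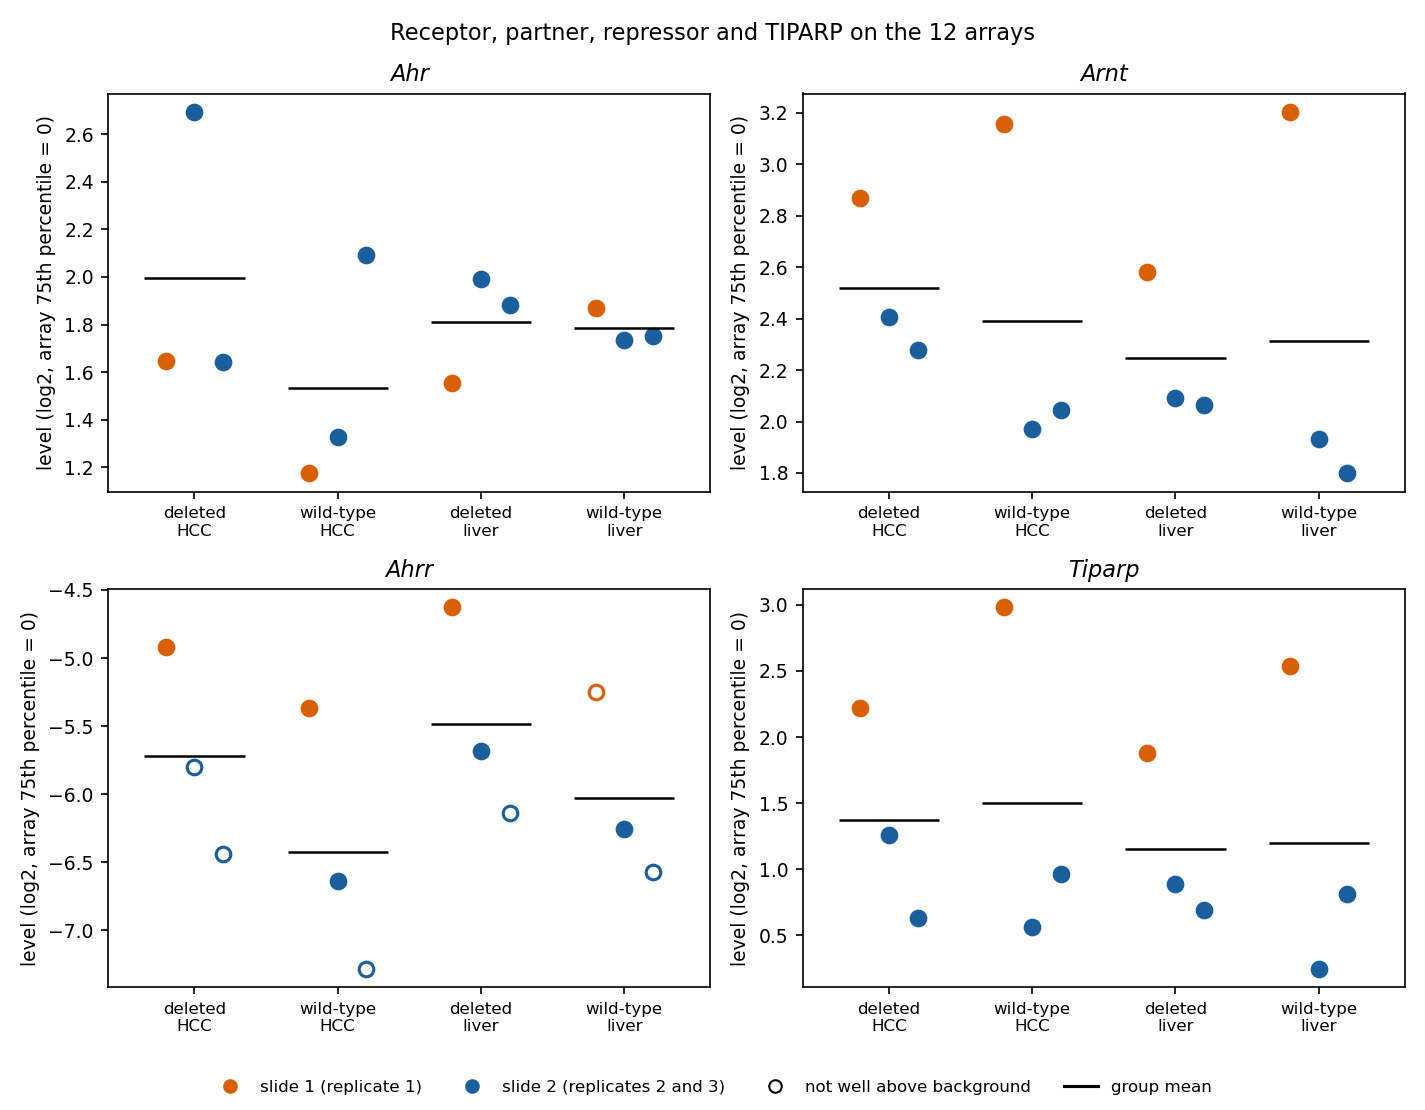
Level of Ahr, Arnt, Ahrr and Tiparp on their brightest probes (y axes, log2 with the 75th percentile of the array at 0) on 12 arrays by group, with slide in colour, open symbols where the probe was not well above background and a line at the group mean. For Arnt and Tiparp the 4 arrays of slide 1 lie above the 8 of slide 2, and no pair of neighbouring groups is separated.

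Over the 6 measurable genes, 0 passed an adjusted p of 0.05 in limma in any of the 5 contrasts, beside 0 of all 26506 genes (0%). At an unadjusted p under 0.05 Cyp1a1 and Cyp1a2 were counted in 3 contrasts, namely deletion in HCC, HCC against liver in wild type, and the interaction of deletion with tissue, and 0 members in the other contrasts. The shares of all genes there were 1.83%, 1.68% and 0.562%, but the members were chosen on these contrasts and nothing is read from that. Groups did not overlap for 1 of the 6 in HCC, Cyp1a1, where 2.76% of all genes were higher and 2.71% lower without overlap. In liver this held as read for 1 of 6, Cyp1b1, with 6.33% of all genes higher and 3.23% lower without overlap. It held for 0 of 6 between survivin-deleted HCC and liver (2.23% higher and 2.26% lower among all genes) and as read for 1 of 6, Cyp1a1, between wild-type HCC and liver (4.67% higher and 2.39% lower). Both rest in part on a wild-type liver array that was not well above background for the gene. With the doubtful arrays exchanged the shares of all genes were 2.69% higher and 2.73% lower for deletion in HCC, and 6.12% and 3.06% for deletion in liver. They were then 3.04% and 3.07% for HCC against liver with survivin deleted, and 5.49% and 3.42% in wild type. The median difference of the 6 genes was 0.97 for deletion in HCC and -0.06 in liver, against -0.02 and 0.05 over all genes. In HCC the differences were 2.92 (Cyp1a1), 2.68 (Cyp1a2), 1.48 (Cyp1b1), 0.46 (Ahr), 0.13 (Arnt) and -0.13 (Tiparp), so the median is no shift of the whole set. Because of how the members were chosen, nothing is read from the medians or the separations either. Cyp1a1 also entered the set only through survivin-deleted HCC.

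**Figure D3:**
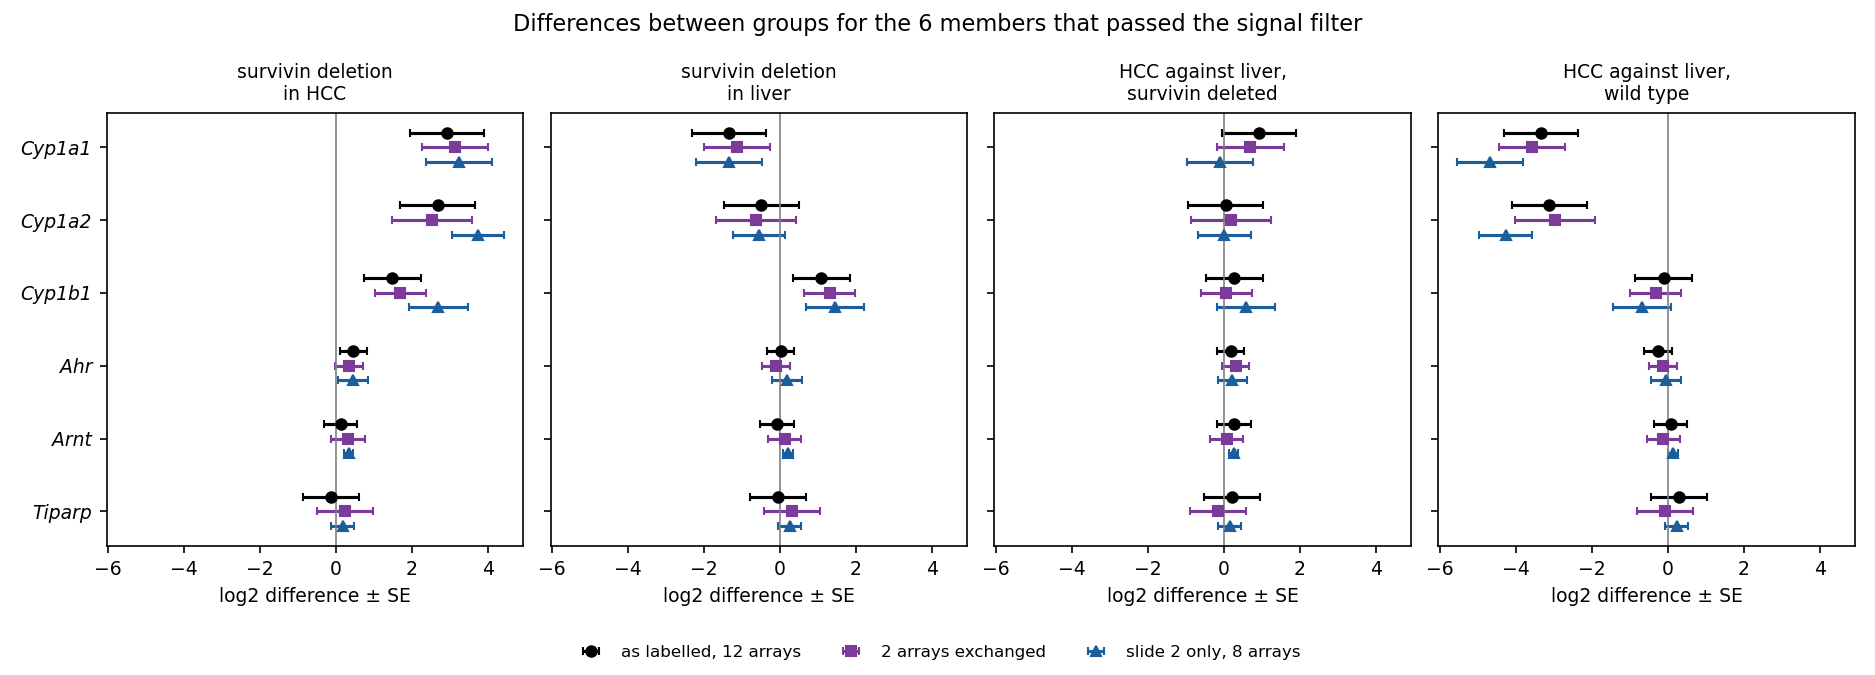
Log2 difference (x axis, ± SE) of the 6 measurable genes in 4 comparisons, HCC deletion, liver deletion, and HCC against liver in each genotype, computed over the 12 arrays as labelled, with the 2 doubtful arrays exchanged, and over the 8 arrays of slide 2. Cyp1a1 and Cyp1a2 lie right of 0 for deletion in HCC and left of 0 for wild-type HCC against liver in each of the 3 versions, and Ahr, Arnt and Tiparp stay within 1 of 0.

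The contrast between the tissues can be followed pair by pair for the arrays that share a replicate number. For Cyp1a1 the survivin-deleted minus wild-type difference as read was 2.29, 4.32 and 2.15 in HCC and -1.37, -1.89 and -0.79 in liver. The HCC sizes are set against arrays not well above background, and neither array of the first liver pair was above it, so that 2 of 3 liver pairs have a readable sign. For Cyp1a2 it was 0.55, 5.05 and 2.43 in HCC and -0.37, -0.74 and -0.35 in liver. The difference between these changes was 3.16 (SE 1.40) for Cyp1a2 and 4.27 (SE 1.38) as read for Cyp1a1, whose size therefore is not exact, and neither passed in the fit over all genes, in which 0 genes passed.

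The wider AHR machinery was read from a list of 28 genes, of which 26 were measured (not Arnt2 and Ido1). In limma 0 of 26 passed in any contrast, and 1 was higher and 0 lower at an unadjusted p under 0.05 for deletion in HCC, beside 1.83% of all genes. For deletion in liver 0 were higher and 1 lower (3.03% of all genes), and for the interaction 1 and 0 (0.562%). For HCC against liver it was 1 higher and 1 lower with survivin deleted (0.856%), and 1 higher and 4 lower in wild type (1.68%). In that wild-type contrast 18 of 26 had a lower mean in HCC (median -0.28, against 0.04 over all genes). This list too was chosen with earlier results on these arrays known. The median difference of the list was 0.10 in HCC and -0.12 in liver, against -0.02 and 0.05 over all genes, and it was -0.02 in HCC without wild-type HCC replicate 2.

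Among the other targets, Gsta1, a glutathione transferase, had the smallest unadjusted p in the list for deletion in HCC. It read 2.72, 2.60 and 1.46 in survivin-deleted HCC and 0.90, 0.48 and 0.18 in wild-type HCC, with no overlap as labelled. In liver it read 2.18, 1.18 and 2.42 in survivin-deleted samples and 2.86, 2.46 and 4.77 in wild-type samples, again with no overlap. The differences were 1.74 (SE 0.60) in HCC and -1.44 (SE 0.60) in liver, and -2.84 (SE 0.60) between wild-type HCC and wild-type liver, so that this gene had the signs of Cyp1a1 in each. The adjusted p was 1 in each of these limma contrasts (unadjusted 0.0146, 0.0357 and 6.32e-04). With the doubtful arrays exchanged the HCC difference was 1.31 and the groups overlapped.

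Nqo1, a quinone reductase, had differences of the same signs, 0.95 for deletion in HCC, -0.70 for deletion in liver and -1.81 for wild-type HCC against liver (SE 0.61 each), with overlap in each. So had Ugt1a6a, a glucuronosyltransferase, with 0.56, -0.11 and -0.70 (SE 0.29 each), where the HCC groups did not overlap as labelled but did with the doubtful arrays exchanged. The liver groups overlapped for Ugt1a6a, and wild-type HCC lay below wild-type liver without overlap. Slc7a5, an amino acid transporter, was 1.51 (SE 0.75) apart in HCC and 1.40 (SE 0.75) in liver, where the groups did not overlap. Fgf21, a hepatokine, had an HCC minus liver difference of 2.38 (SE 0.96) with survivin deleted and 2.64 (SE 0.96) in wild type, and was well above background on 2 and 3 of 3 HCC arrays but on 1 of 3 liver arrays in each genotype, so that these sizes are not exact. For Cd36, a fatty acid translocase, these differences were -1.03 and -1.20 (SE 0.45 each). Limma's adjusted p was 1 for all of these genes.

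Because Cyp1a2 belongs to the pericentral zone, it was set beside 12 pericentral genes. All 12 had a higher mean in survivin-deleted HCC than in wild-type HCC (median difference 2.46, against -0.02 over all genes), or 10 of 12 without wild-type HCC replicate 2, and 12 had a lower mean in wild-type HCC than in wild-type liver (median -1.25, against 0.04). In limma 0 of 12 passed in either contrast, and 9 and 4 had an unadjusted p under 0.05, beside 1.83% and 1.68% of all genes. For deletion in liver 10 of the 12 pericentral genes had a higher mean with survivin deleted (median of the 12 0.61, against 0.05 over all genes). The other 2, Cyp2e1 (-0.17) and Rgn (-0.05), had a lower one. Cyp1a2 too had a lower mean there (-0.49, SE 0.99), with overlap. Its 95% interval of -2.66 to 1.69 contains the pericentral median, so no parting of Cyp1a2 from these genes is shown. In limma 0 of 12 passed for deletion in liver, and 0 had an unadjusted p under 0.05, beside 3.03% of all genes. Glul, glutamine synthetase of the innermost pericentral hepatocytes, read 3.07, 3.71 and 2.49 in survivin-deleted HCC and 1.36, 0.57 and 1.00 in wild-type HCC. The groups did not overlap (2.11, SE 0.39, adjusted p 1 in limma), nor with the doubtful arrays exchanged (1.80). Tbx3 and Lect2, further beta-catenin targets in liver, had differences of 2.80 (SE 0.61) and 1.90 (SE 0.42) without overlap as labelled, and Tbx3 overlapped with the arrays exchanged. Axin2, another such target, was well above background on 3 of 3 survivin-deleted HCC arrays and 1 of 3 wild-type HCC arrays, so its measured difference of 4.07 (SE 0.82) is not exact, and its groups too overlapped with the arrays exchanged.

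The summed level of the 12 pericentral genes was 187.5, 155.6 and 102.3 in survivin-deleted HCC and 178.2, 33.6 and 46.0 in wild-type HCC (replicates 1, 2 and 3; 75th percentile = 1). The low arrays were the pair in which Cyp1a2 was low. Periportal genes, which mark the opposite end of the lobule, summed to 190.9, 54.3 and 199.8 in survivin-deleted HCC and 269, 164.7 and 182.6 in wild-type HCC. Their means were lower in survivin-deleted HCC for 8 of 8 genes (median difference -0.70), but without survivin-deleted HCC replicate 2, the lowest array, for 5 of 8 (median -0.06), and 0 passed in limma with 1 at an unadjusted p under 0.05. Both lists were chosen with earlier results on these arrays known.

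**Figure D4:**
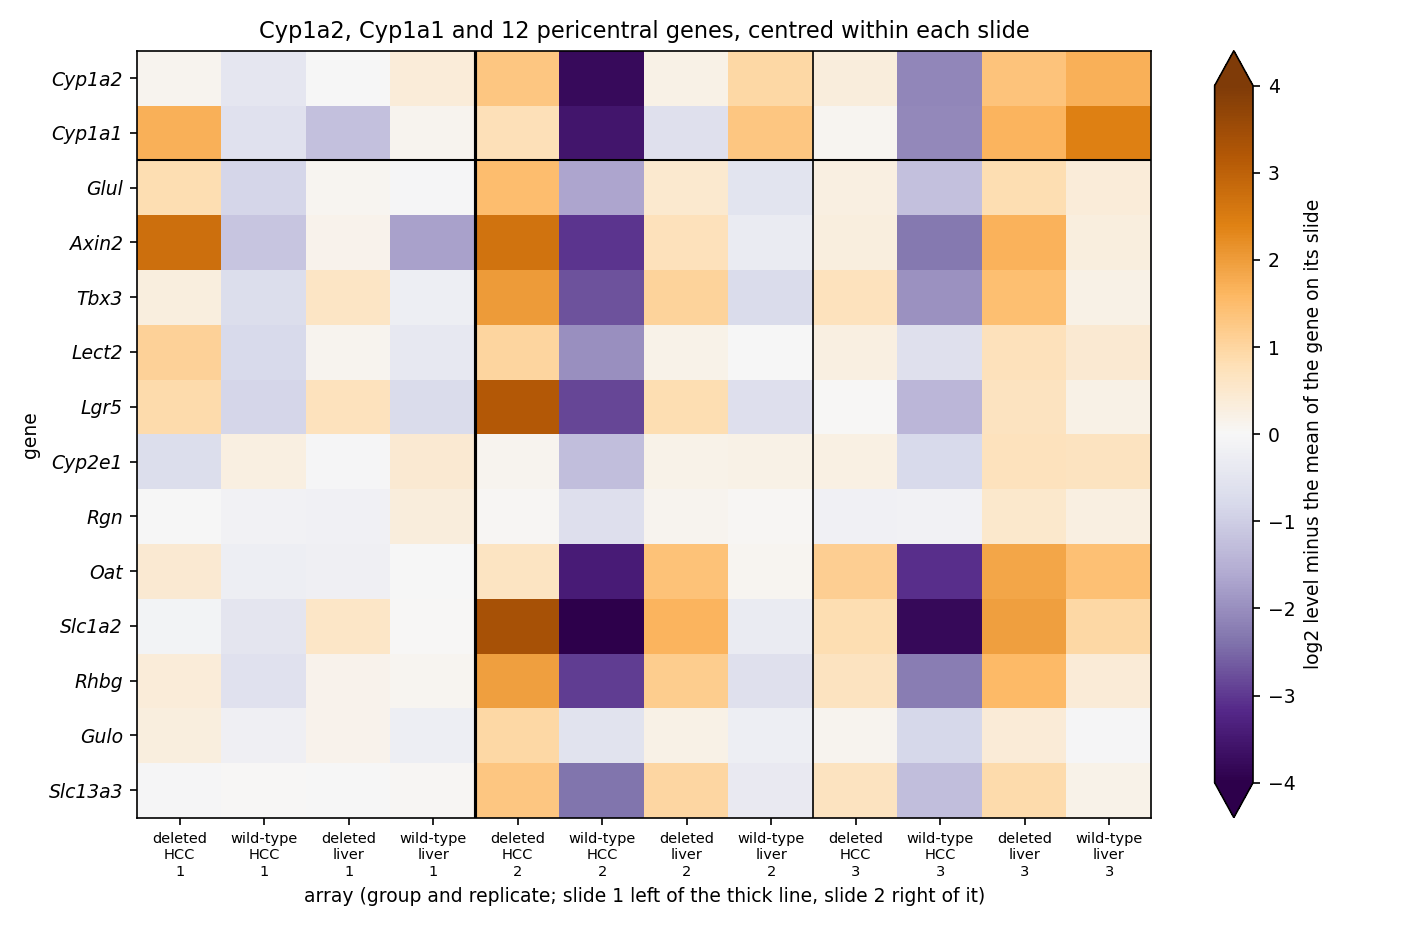
Log2 level minus the mean of the gene on its slide (colour, with the scale ending at 4 in each direction) for Cyp1a2, Cyp1a1 and 12 pericentral genes (rows) on 12 arrays (columns, by replicate and group, slide 1 at the left). Wild-type HCC replicates 2 and 3 are the low columns for Cyp1a2 and for most pericentral genes, and the slide 1 columns differ less.

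Likeness of pattern was measured by Pearson correlation over the 12 arrays after each gene was centred on its slide, as a description over arrays that share groups and slides. Cyp1a1 and Cyp1a2 correlated at 0.906 (Spearman 0.818), and at 0.758 without the 2 arrays farthest from the median of Cyp1a2, which were wild-type HCC replicates 2 and 3. Cyp1a1 was well above background on 7 of the 12 arrays and on 0 of 3 in wild-type HCC, so that these values rest in part on readings with no order. Cyp1a2 correlated with Cyp1b1 at 0.546, with Ahr at 0.426, with Arnt at 0.088 and with Tiparp at 0.039. With the 12 pericentral genes it correlated at 0.688 (Gulo) to 0.915 (Oat), and at 0.321 to 0.644 without the same 2 arrays.

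Among 14861 genes, clone-like names left out, those most like Cyp1a2 were Lhpp (0.950), Oat (0.915), Ppp1r3c (0.913), Adora1 (0.912) and Sytl4 (0.910). Without the 2 low arrays these were 0.596 to 0.708. Lhpp, a phosphatase, read 2.26, 3.31 and 2.37 in survivin-deleted HCC and 1.66, -2.41 and -0.90 in wild-type HCC, again low in wild-type HCC replicates 2 and 3. Oat, ornithine aminotransferase, read 3.68, 2.41 and 2.91 in survivin-deleted HCC and 3.01, -1.66 and -1.34 in wild-type HCC. Among those most like Cyp1a1 were Gsta2 (0.852), Adora1 (0.848), Serpinb1c (0.843) and Zfp445 (0.841), with the limit that Cyp1a1 was not well above background on 5 arrays, whose values have no order.

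Markers of other cell types were read in the HCC groups as well, and 0 passed in limma. The 4 T cell markers (Cd3d, Cd3e, Cd3g, Cd2), well above background on all 12 arrays, had higher means in survivin-deleted than in wild-type HCC (median difference 1.74), with sums of 1.08 to 4.42 against 0.444 to 0.995, and 2 of 4 had an unadjusted p under 0.05. With the doubtful arrays exchanged the median was 1.14, all 4 markers overlapped, and the wild-type HCC sums reached 3.06. The 4 B cell markers (median 1.10) summed to 0.558 to 1.34 in survivin-deleted HCC and 0.311 to 1.02 in wild-type HCC. The liver tumour markers Afp and Gpc3 (median 1.34) summed to 4.13 to 13.2 in survivin-deleted HCC and 1.57 to 4.41 in wild-type HCC, which reached 17.6 with the arrays exchanged. Macrophage markers summed to 19.1 to 32.9 in survivin-deleted HCC and 11.8 to 41.1 in wild-type HCC, where replicates 2 and 3 were the low arrays at 13.4 and 11.8. Their part in the Cyp1a1 and Cyp1a2 differences was not tested. Hepatocyte markers, by contrast, summed to 260.9 to 327 in survivin-deleted HCC and 288.4 to 320.1 in wild-type HCC, and their differences ran from -0.17 to 0.06 on the log2 scale. In liver 5 of 5 had a lower mean with survivin deleted (median -0.28, against 0.05 over all genes). They summed to 207.6 to 245.9 in survivin-deleted liver, up to 288.4 with the arrays exchanged, and to 250 to 341 in wild-type liver. In limma 0 passed there, and 0 had an unadjusted p under 0.05 (3.03% of all genes). Their part in the liver values of Cyp1a1 and Cyp1a2 was not tested.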

How the data were processed

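The 12 scanner files come from Agilent Feature Extraction 10.7, as the submitters' processing notes name it. Per the file headers, the authors' processed intensity of each spot had spatial trends removed and dim spots replaced by surrogate values. A deposited table of the same arrays is on a log2 scale with column medians of -3.27 to -2.51 and a 75th percentile near 0; its further steps are not given in the sources used here, and it served as an alternative. Probe names and mm9 positions are those of the files. Arrays give no counts, and their number (3 in each group) limits the precision.

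Of 62976 spots 59305 were not controls, in 55681 probes. Signals were taken as log2, the spots of a probe were averaged without flagged outliers and the 75th percentile of the array was subtracted. A probe was kept if every array of 1 group or more had it well above background (39136 probes), and the brightest stood for its gene (26506 genes, 7837 with more than 1 probe). limma 3.58.1 in R 4.3.3 fitted 4 group means (8 residual degrees of freedom) with moderated variances and Benjamini-Hochberg adjustment over all genes at 0.05. The fit was tested on simulated data.

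The members and the gene lists were chosen with earlier results of these data known. Named genes are all members, Birc5, the 5 genes most like Cyp1a1 and Cyp1a2, and up to 4 genes of smallest p per list and contrast. Some items that this rule would name are not reported here. Replicate numbers pair arrays through the slide: same-numbered arrays had correlated deviations (0.279 to 0.737 over 18 comparisons), though within slide 2 only 2 of 6 exceeded 0.1. The 17 alternatives and the arrays left out in turn are described at the end.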

Additional observations from a re-analysis of the deposited data

Results flagged for a closer look

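Cyp1a1 and Cyp1a2 were flagged by the signs of the survivin-deleted minus wild-type difference of same-numbered arrays. As read, this difference was positive in 3 of 3 HCC pairs and negative in 3 of 3 liver pairs. Both genes were chosen with earlier results of these arrays known, and Cyp1a1 entered the filtered set only through survivin-deleted HCC. How many of all genes share these signs was not counted, so the signs are a description only. For Cyp1a1 neither array of the first liver pair was well above background, so that 2 of 3 liver pairs have a readable sign. The difference between the tissues was 4.27 for Cyp1a1 and 3.16 for Cyp1a2 on the log2 scale. Neither passed limma's interaction test over all genes, in which 0 of 26506 genes passed, and the pairs are matched only by slide and number. The signs were the same with the 2 doubtful arrays exchanged, where slide 1 gave 2.96 in HCC and -0.71 in liver for Cyp1a1, again between arrays not well above background in liver, and 0.12 and -0.80 for Cyp1a2. The exchange cannot change the difference between the tissues, since both arrays enter it with the same sign. With both left out that difference was 3.88 (SE 1.34) as read for Cyp1a1 and 4.79 (SE 0.87) for Cyp1a2. Cyp1a1 was not well above background in wild-type HCC, so that 4.27 is not an exact size.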

How the results depend on the processing

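In 28 of the 29 alternatives, leaving out single arrays included, 0 members, 0 pathway genes and 0 pericentral genes passed in each contrast they could be fitted for, and in the replicate block fit the counts were also 0 and no call changed (Cyp1a1 2.92, SE 0.92, and Cyp1a2 2.68, SE 0.77, for deletion in HCC). The exception was array weights, which gave slide 1 weights of 0.117 to 0.249 and slide 2 weights of 0.931 to 4.09. Under array weights 2 members (Cyp1a1 and Cyp1a2), 2 pathway genes (Gsta1 and Fgf21) and 6 pericentral genes passed for wild-type HCC against liver (1.2% of all genes), 5 pericentral genes for deletion in HCC (0.23%), and 1 pathway gene (Slc7a5) and 1 pericentral gene (Tbx3) for deletion in liver (2.64%). The cause was not tested. The sign of the deletion difference in HCC was positive for Cyp1a1 (1.15 to 3.39) in 28 of 28 alternatives that measured it, and for Cyp1a2 (1.58 to 4.04) in 29 of 29. With the filter on all 12 arrays Cyp1a1 and Cyp1b1 drop out. Leaving out 1 array gave 2.32 to 3.39 for Cyp1a1 and 1.58 to 4.04 for Cyp1a2. Of 854 member values 11 moved by more than the spread between arrays. Leaving out single HCC arrays or exchanging the doubtful pair was chosen after seeing the data for the medians of the gene and marker lists, and it moved the periportal median of -0.70 to -0.06 without survivin-deleted HCC replicate 2. Signal close to background limits Cyp1a1 and Ahrr.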

Other observations

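Cyp1b1, which followed Cyp1a2 less closely, was most like Sspn (0.927), Gfpt2 (0.927), Ifi202b (0.921), Hif3a (0.914) and Trim12c (0.911) over the 12 arrays. Sspn encodes a muscle-type membrane protein, Gfpt2 an enzyme of hexosamine synthesis, and Ifi202b an interferon-induced DNA sensor. Without survivin-deleted HCC replicate 2 and survivin-deleted liver replicate 3, the arrays with the highest Cyp1b1, these correlations were 0.816 to 0.880. The 5 names were read after their values were seen.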
